A study of Mus musculus with 2 samples.

Results

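ISG15 and its conjugation machinery comprised 5 genes, found by their symbols among the 25509 genes of the count table: Isg15, Uba7, Ube2l6, Herc6 and Usp18. All 5 were present, and all 5 passed the filter of at least 10 counts in 1 library or both, which 12941 genes passed. The libraries came from mouse soft-tissue sarcoma cells, made from mesenchymal stem cells of strain C57BL/6 that lacked p53 and stably overexpressed Ccne1 from a retroviral vector. The cells had grown as subcutaneous tumors, were seeded in the lungs of further mice, and were taken from the lung foci before transduction. The shcircCsnk1g3 library came from cells with a lentiviral hairpin against the backsplice junction of circCsnk1g3, and the shCTR library from cells with the control hairpin. Both groups shared the p53 loss and the Ccne1 transgene. By the study's methods, mice were bought as females of 8 to 10 weeks. Whether foci or clones were pooled was not given in the sources used here. With 1 library per condition there was no replicate error to compare with, and no p-value was computed.

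ISG15 is a small protein built of a pair of ubiquitin-like domains, and it is among the genes most readily switched on by type I interferon. It is joined to other proteins by a cascade like that of ubiquitin: UBA7, the activating enzyme (E1), loads it, UBE2L6, the conjugating enzyme (E2), carries it, and HERC6, the main ligase (E3) in the mouse, passes it to the target. USP18 removes it again, and apart from this protease activity it binds the interferon receptor chain IFNAR2 and damps signaling. The genes of this cascade are themselves interferon-stimulated, and their promoters are known to respond to a complex that holds STAT2 and IRF9 and binds the interferon-stimulated response element (ISRE).

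The start of Isg15 is shown because it held a cluster of ISRE letters, and that of Ube2l6 because among the members with a promoter sequence Isg15 had the largest and Ube2l6 the smallest fold change. Each window runs from 250 bases before to 50 bases after the annotated start (RefSeq, GRCm38.p6) and reads 5′ to 3′ in the direction of transcription. Capitals mark the ISRE core, searched as GAAANNGAA on both strands, where matches may overlap.

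Isg15, chr4:156200769-156201068, minus strand: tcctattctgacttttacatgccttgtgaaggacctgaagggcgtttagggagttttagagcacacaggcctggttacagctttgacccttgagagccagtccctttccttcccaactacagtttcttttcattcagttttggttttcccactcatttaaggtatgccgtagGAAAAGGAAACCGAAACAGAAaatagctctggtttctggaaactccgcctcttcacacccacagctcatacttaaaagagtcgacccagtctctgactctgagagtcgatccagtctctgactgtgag

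Ube2l6, chr2:84798578-84798877, plus strand: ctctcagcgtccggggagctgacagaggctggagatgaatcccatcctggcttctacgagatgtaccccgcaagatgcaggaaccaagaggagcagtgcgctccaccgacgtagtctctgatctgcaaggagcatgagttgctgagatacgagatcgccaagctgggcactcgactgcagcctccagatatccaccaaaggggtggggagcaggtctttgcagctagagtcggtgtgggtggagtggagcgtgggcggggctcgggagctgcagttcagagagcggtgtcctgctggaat

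In the Isg15 window, 3 overlapping matches lay from 78 to 58 bases before the start and together formed the single capital run. The Ube2l6 window held no match, and neither did those of Uba7 and Herc6. Usp18 had no entry in the promoter table. Of the 32851 windows in the table, 8.56% held the ISRE core, and counted per gene 9.76% of 27025 genes did. The letters of the gamma-activated site (GAS), the element of the interferon gamma response, were searched as TTCNNNGAA, a motif that reads alike on both strands. They were in none of the 4 member windows and in 8.30% of all windows. A match is a description of the letters and does not show binding.

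**Figure D1:**
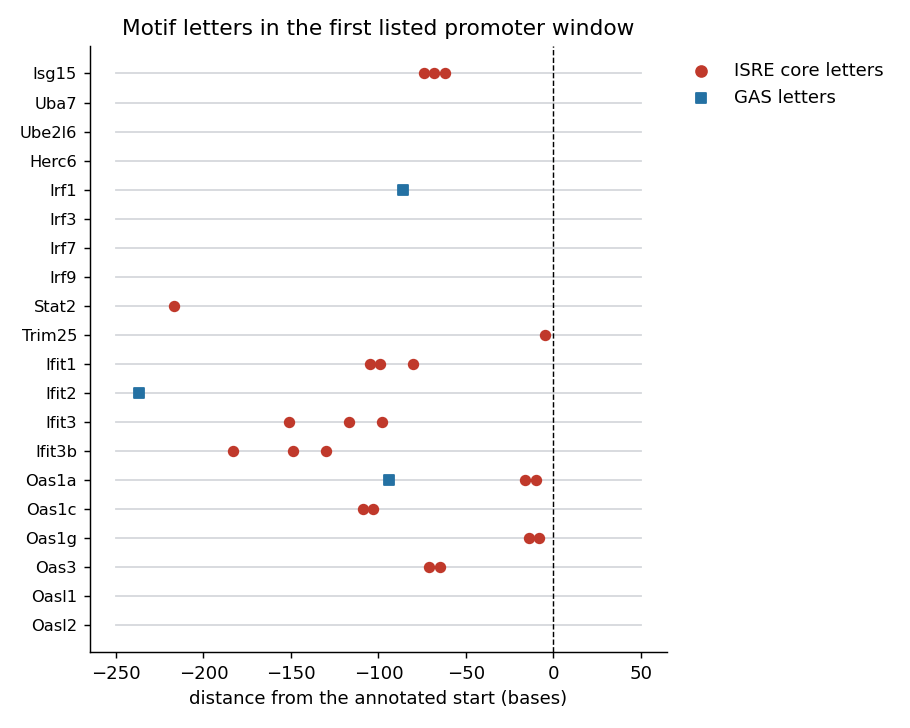
Positions of ISRE core letters (circles) and GAS letters (squares) in the first listed promoter window of 20 genes, on an x axis of bases from the annotated start (dashed line). Among the 4 ISG15 system genes with a window, Isg15 alone has matches, 3 of them within 78 bases of the start, and several Ifit and Oas genes also have 2 or 3.

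The same search gave matches in the Ifit genes, which bind viral RNA, and in the Oas genes, whose products sense double-stranded RNA. The ISRE core was in the windows of 5 of 6 Ifit genes and of 4 of the 8 Oas genes that had a window. Among the 10 genes listed for the interferon receptor, JAK-STAT and IRF pathway, it was found for Stat2 and Skp2. Among the further enzymes reported for ISG15 it was found only for Trim25, of 8 with a window. Irf7 and Irf9, which are themselves interferon-stimulated, had no match in their windows.

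All 5 genes had higher levels in the shcircCsnk1g3 library than in the shCTR library, as did 50.4% of the 12941 genes. Levels are given as CPM, the count relative to library size after TMM scaling (a correction for library composition), with a 95% exact Poisson interval. The fold change is given as log2 of the CPM ratio with a prior count of 2, followed by a 95% interval for the count ratio from exact Clopper-Pearson limits. These intervals cover counting error only, so they compare the pair of libraries and not the conditions, and an effect of the hairpin cannot be told apart from a difference between cultures.

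Isg15, the modifier itself (ENSMUSG00000035692, chromosome 4, 156199424 to 156200818, minus strand, GRCm38), had 394 counts in the shCTR library and 1029 in the shcircCsnk1g3 library. Its level was 9.33 CPM (8.43 to 10.3) in the control and 26.2 CPM (24.7 to 27.9) after silencing. The log2 fold change was 1.49 (1.32 to 1.66). Isg15 thus had the lower level in the control library by a margin far outside counting error.

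Uba7, the activating enzyme (ENSMUSG00000032596, chromosome 9, 107975505 to 107984060, plus strand), was the least counted member, with 62 counts in the control and 111 after silencing. Its level was 1.47 CPM (1.13 to 1.88) and 2.83 CPM (2.33 to 3.41). The log2 fold change was 0.93, with a wide interval from 0.49 to 1.42 that reached past a doubling.

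Ube2l6, the conjugating enzyme (ENSMUSG00000027078, chromosome 2, 84798828 to 84810335, plus strand), had 765 counts in the control and 940 after silencing. Its level was 18.1 CPM (16.8 to 19.4) and 24.0 CPM (22.5 to 25.6). The log2 fold change of 0.40 (0.27 to 0.54) was the smallest of the 5. In the control library Ube2l6 had more counts than any other member.

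Herc6, the ligase (ENSMUSG00000029798, chromosome 6, 57581000 to 57664632, plus strand), had 351 counts in the control and 496 after silencing. Its level was 8.31 CPM (7.46 to 9.22) and 12.6 CPM (11.6 to 13.8), with a log2 fold change of 0.60 (0.41 to 0.81).

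Usp18, the protease that removes ISG15 (ENSMUSG00000030107, chromosome 6, 121245906 to 121270917, plus strand), had 108 counts in the control and 376 after silencing. Its level was 2.56 CPM (2.10 to 3.09) and 9.59 CPM (8.64 to 10.6). The log2 fold change of 1.89 (1.59 to 2.23) was the largest of the 5, a ratio of 3.75.

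**Figure D2:**
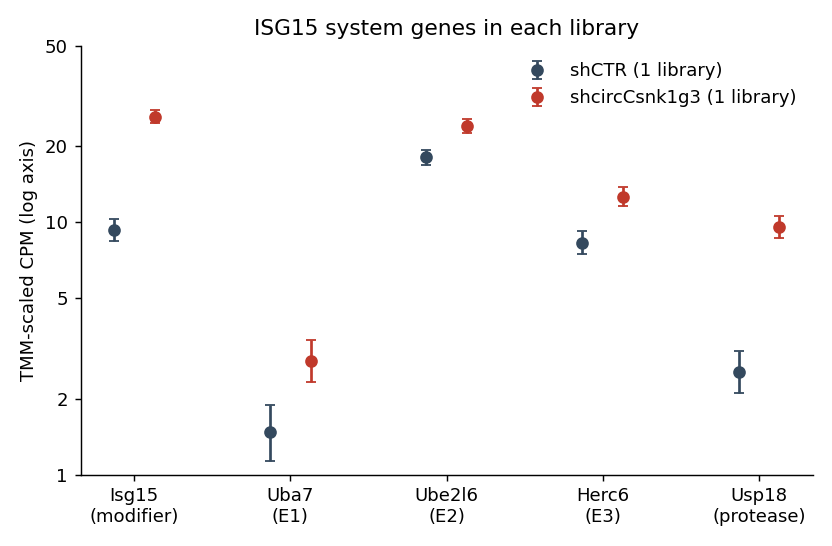
Level of each ISG15 system gene in TMM-scaled CPM (log axis), 1 point per library, with bars for the 95% exact Poisson interval of the count. In each of the 5 genes the shcircCsnk1g3 point lies above the shCTR point and the bars do not overlap, with the widest gaps for Usp18 (2.56 and 9.59 CPM) and Isg15 (9.33 and 26.2 CPM).

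Of the 5 genes, 2 (Isg15 and Usp18) were at least 2-fold higher after silencing. Over all 12941 genes, 2.13% were at least 2-fold higher and 2.55% at least 2-fold lower, and none of the 5 was lower. At least 1.5-fold higher were 4 of the 5, all but Ube2l6, against 5.39% of all genes. Herc6 was close to that limit, and at 0.57 on the log2 scale after a correction for GC content and length it no longer passed it. The interval of the ratio lay above 0 on the log2 scale for all 5, and for 26.9% of all genes. The median log2 fold change was 0.93 over the 5 genes and 0.00 over all genes. By fold change, Usp18 ranked 59, Isg15 125, Uba7 308, Herc6 662 and Ube2l6 1197 of the 12941 genes. Among the 10662 genes whose summed count reached 200, a limit that Uba7 with 173 fell short of, Usp18 ranked 8 and Isg15 26.

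The members differed from each other in how far they were above the control. The fold changes of all 10 pairs of members were compared by the ratio of their count ratios, which does not depend on how the libraries are scaled, with 95% exact conditional intervals that were not adjusted for the number of pairs. In 8 of 10 pairs the interval excluded equal change. Usp18 was further above the control than Isg15 by 0.41 on the log2 scale (0.06 to 0.78), so the order of the pair was only just resolved at this depth. Isg15 was further above it than Ube2l6 by 1.09 (0.87 to 1.31), than Herc6 by 0.89 (0.62 to 1.15) and than Uba7 by 0.54 (0.04 to 1.04). Within the cascade, Uba7 and Herc6 could not be told apart (0.34, -0.17 to 0.86), nor could Herc6 and Ube2l6 (0.20, -0.04 to 0.45). Uba7 was above Ube2l6 by 0.54 (0.06 to 1.04). The modifier and its protease therefore had the larger fold changes in this pair of libraries, and the 3 enzymes of the cascade smaller ones. For Uba7, the least counted member, its place below Isg15 was only just resolved.

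The unequal fold changes altered the proportions of the cascade. For each count of Ube2l6 there were 0.515 counts of Isg15 in the control library and 1.09 in the shcircCsnk1g3 library. Usp18 had 0.274 counts per count of Isg15 in the control and 0.365 after silencing. To compare levels between genes, CPM was divided by the length of the longest annotated transcript in kilobases (GENCODE M21): 756 bases for Isg15, 3620 for Uba7, 1560 for Ube2l6, 4767 for Herc6 and 1771 for Usp18.

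On this scale, levels per kilobase in the control were 12.3 for Isg15, 11.6 for Ube2l6, 1.74 for Herc6, 1.44 for Usp18 and 0.405 for Uba7. After silencing they were 34.7, 15.4, 2.65, 5.41 and 0.782 in the same order of genes. Isg15 and Ube2l6 were thus nearly level in the control, whereas Isg15 stood clear of Ube2l6 after silencing. Usp18 and Herc6 had close levels in the control, with an order not resolved beyond counting error, and Usp18 was above Herc6 after silencing. Isg15 made up 44.8% of the summed level per kilobase of the 5 genes in the control and 58.9% after silencing, while Ube2l6 went from 42.2% to 26.1%. The share of Usp18 was 5.24% and 9.19%, and Uba7 had the smallest share in both libraries (1.47% and 1.33%). Transcript abundance does not measure protein or conjugated ISG15, which these libraries do not record.

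**Figure D3:**
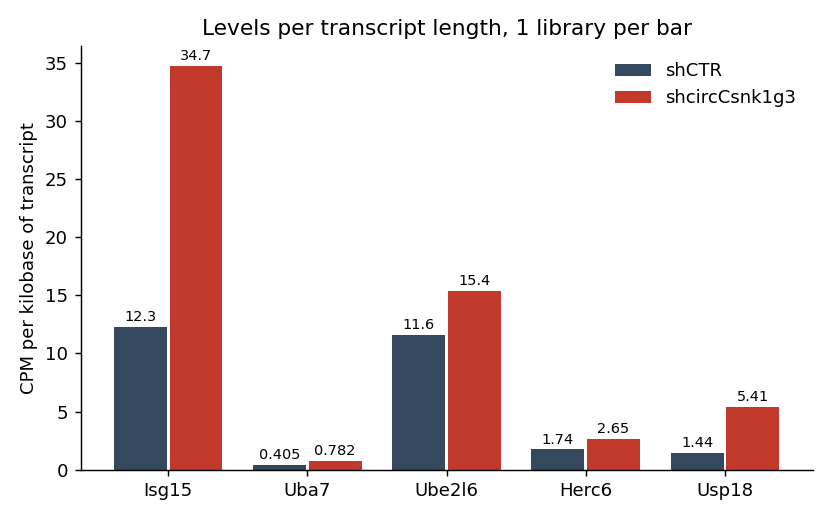
CPM per kilobase of the longest annotated transcript for each ISG15 system gene, 1 library per bar and an axis from 0. Isg15 and Ube2l6 are close in shCTR (12.3 and 11.6), and in shcircCsnk1g3 Isg15 is at 34.7 and Ube2l6 at 15.4, with Usp18 (5.41) above Herc6 (2.65).

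Each member belongs to a larger protein family of the ubiquitin system, and the members were set beside those relatives. In each of the 5 families the log2 fold change of the ISG15 gene was above that of the other tested genes. The counting intervals of Isg15 and Usp18 lay clear of all their relatives, whereas that of Uba7 overlapped with Mocs3, that of Herc6 with Herc3 and that of Ube2l6 with Atg10 and other conjugating enzymes, so first place was not resolved for these 3. Of 17 other modifiers tested, among them the SUMO proteins and NEDD8, none was 1.5-fold changed in either direction. Their median log2 fold change was -0.02 and ranged from -0.20 (Gabarapl2, of autophagy) to 0.33 (Atg12, the autophagy modifier). Ubd, which encodes the interferon-inducible modifier FAT10, was at 0 counts in both libraries. Isg15 was a minor modifier by transcript level: per kilobase it ranked 16 of 18 in the control and 11 of 18 after silencing.

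Of the 9 other activating enzymes, 5 were higher and 4 lower, between -0.31 (Atg7, of autophagy) and 0.25 (Mocs3), and the median was 0.02. Uba7 was the lowest of the 10 in level per kilobase in both libraries. Of the 36 other conjugating enzymes tested, 16 were higher and 20 lower, between -0.48 (Ube2o) and 0.31 (Atg10), and the median was 0.00. Ube2l6 ranked 28 of 37 by level per kilobase in the control and 24 after silencing. With a log2 fold change of 0.40, Ube2l6 had the smallest gap to the next gene of its family among the 5 members.

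Of the 4 other HERC ligases, 1 was higher and 3 lower, with a median of -0.09. Herc4 was at 0.05 (-0.05 to 0.16), Herc2 at -0.04 (-0.09 to 0.02) and Herc1 at -0.15 (-0.22 to -0.07). Of 44 other ubiquitin-specific proteases tested, 24 were higher and 20 lower, between -0.32 (Usp2) and 0.61 (Usp11), and the median was 0.02. Usp11 was the only one at least 1.5-fold changed. Usp18 ranked 44 of 45 by level per kilobase in the control and 39 after silencing.

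**Figure D4:**
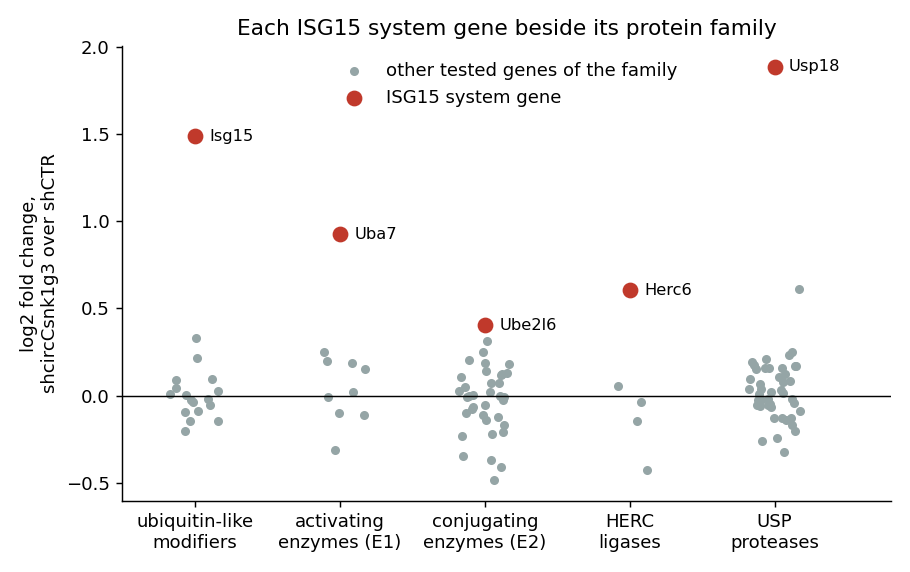
Log2 fold change (shcircCsnk1g3 over shCTR) of each ISG15 system gene (large points) and of the other tested genes of its protein family (small points, spread sideways for legibility), 1 library per condition. In each family the ISG15 gene is the highest point (an order not resolved beyond counting error for Uba7, Herc6 and Ube2l6), and the gap to the next gene is smallest for Ube2l6 (0.40, with Atg10 at 0.31).

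For the 4 members with an enzyme function, the nearest relative in the family was taken by identity of the translated coding sequences (GENCODE M21), over the residues aligned. For Ube2l6 it was Ube2l3, a ubiquitin conjugating enzyme, with 50.3% identity over 153 residues. Ube2l3 had 6913 counts in the control and 5887 after silencing, a log2 fold change of -0.12 (-0.17 to -0.07), opposite in sign to that of Ube2l6. For Uba7 it was Uba1, the main activating enzyme of ubiquitin, with 47.8% identity and 30535 and 28177 counts, at -0.01 (-0.03 to 0.02).

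For Herc6 it was Herc3 with 39.3% identity, which had only 21 and 14 counts and an interval from -1.57 to 0.57. For Usp18 it was Usp49, a nuclear protease, with 33.3% identity and 700 and 632 counts, at -0.04 (-0.20 to 0.12). Usp49 was nearest by a small margin only, with Usp30 at 32.3% identity. The intervals of Uba1, Ube2l3 and Usp49 lay below that of their ISG15 counterpart, while that of Herc3 was too wide to separate it from Herc6.

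Further enzymes have been reported to act on ISG15 elsewhere, and their genes were listed apart from the 5. Trim25, a ligase for ISG15 that also activates RIG-I, had 3035 counts in the control and 3499 after silencing, a log2 fold change of 0.31 (0.24 to 0.38). Arih1, another ligase reported for ISG15, was at 0.07 (0.01 to 0.13), and Ube2e1, a conjugating enzyme, at 0.11 (0.03 to 0.18). Of the proteases with reported activity toward ISG15, Usp2 was at -0.32 (-0.48 to -0.17), Usp14 at -0.20 (-0.27 to -0.14) and Usp21 at -0.17 (-0.30 to -0.04). The intervals of Usp5 (0.03), Usp13 (-0.13), Usp16 (0.11) and Usp24 (0.02) included 0. Of the 10 genes of this list that were tested, 6 were higher and 4 lower, none by 1.5-fold, with a median of 0.02. Itgal, a subunit of the LFA-1 integrin that acts as a receptor for secreted ISG15, had 1 count in the control and 0 after silencing, both under the floor of 3 counts.

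Genes that relay the interferon signal to the 5 promoters were also listed, together with Skp2, which acts on USP18 instead. Irf9, the DNA-binding subunit of the complex that recognises the ISRE, had 1073 counts in the control and 2196 after silencing, a log2 fold change of 1.14 (1.03 to 1.25). Stat2, its partner and also the protein that brings USP18 to the receptor, had 756 and 1290 counts, at 0.88 (0.75 to 1.01). Both were thus higher after silencing, Irf9 further than Stat2, with intervals that did not overlap.

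Irf7, which amplifies interferon production, was at 1.29 (1.02 to 1.59) and Irf1 at 0.43 (0.34 to 0.53). The receptor chains, their kinases and Irf3 were closer to 0. Ifnar2, the receptor chain that USP18 binds, was at 0.15 (-0.00 to 0.29), Ifnar1 at -0.12 (-0.20 to -0.04), Tyk2 at 0.16 (0.04 to 0.28), Jak1 at -0.10 (-0.14 to -0.06) and Irf3, which is activated by phosphorylation, at 0.07 (-0.03 to 0.17). Skp2, whose product targets USP18 for degradation, was at -0.17 (-0.27 to -0.08). Of these 10 genes 7 were higher and 3 lower, 2 of them at least 2-fold higher, with a median of 0.15.

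**Figure D5:**
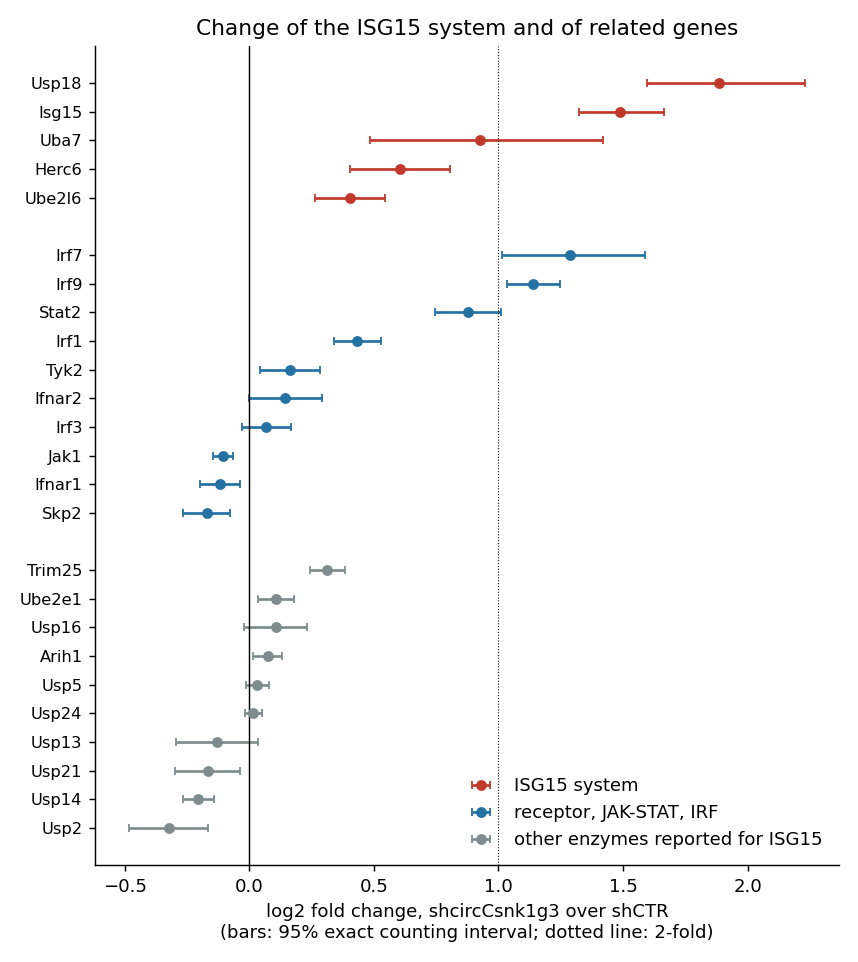
Log2 fold change (shcircCsnk1g3 over shCTR) with 95% exact counting intervals for the 5 ISG15 system genes, 10 genes of the interferon receptor, JAK-STAT and IRF pathway, and 10 further enzymes reported for ISG15; the dotted line marks 2-fold. Usp18 and Isg15 lie wholly beyond 2-fold, as do Irf7 and Irf9, and the further enzymes lie between -0.32 and 0.31.

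For comparison, 2 interferon-stimulated families were listed. Of the 4 Ifit genes tested, 3 were at least 2-fold higher, with a median of 1.48: Ifit3b was at 2.10, Ifit3 at 1.56 and Ifit1 at 1.40, while Ifit2 was at -0.09 (-0.25 to 0.06). Of the 7 Oas genes tested, 6 had an interval above 0 and 3 were at least 2-fold higher, with a median of 0.83, while Oas1c had 16 and 15 counts, at 0.01 (-1.10 to 1.13). Oasl2 was at 1.74, Oas3 at 1.69 and Oas1a at 0.48 (0.13 to 0.85). Usp18 at 1.89 lay above the medians of both families, and Herc6 and Ube2l6 below both. Isg15 at 1.49 (1.32 to 1.66) was above the Oas median and not resolved from the Ifit median of 1.48. Uba7 at 0.93 (0.49 to 1.42) was below the Ifit median and not resolved from the Oas median of 0.83. Outside the members, the 10 genes with at least 200 summed counts whose log2 fold change was nearest to the median of the 5 (0.93) were Tshz1, Pcdhga1, AI839979, Trim30a, Otub2, Ccdc57, Stk36, Akr1c14, Fgf2 and Saa3, all within 0.03 of it. This likeness is a distance in 1 fold change over 2 libraries and carries no further meaning.

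The shCTR library held 42709996 counts and the shcircCsnk1g3 library 38792143, so that 3 counts corresponded to 0.0710 and 0.0765 CPM. Csnk1g3, the host gene of the targeted circRNA, had 2411 counts in the control and 2159 after silencing. Since circular RNAs lack a poly(A) tail, these poly(A) libraries did not measure circCsnk1g3 and the counts of its host gene do not check the labels. Of 12 mesenchymal markers, 11 were tested, of which 2 were higher and 9 lower, with a median log2 fold change of -0.10. They lay between 0.37 (Col3a1) and -0.69 (Ly6a), while Thy1 was at 1 and 0 counts. All 12 summed to 13600 CPM in the control and 12800 CPM after silencing.

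Markers of leukocytes, which also express this system, were mostly absent. Of 16 such markers, 3 were tested: Cd14 (1774 and 1844 counts), Cd68 (155 and 87) and Laptm5 (102 and 45). Their list summed to 48.4 CPM in the control and 50.7 CPM after silencing, most of it Cd14, and Laptm5 was at -1.04 on the log2 scale. Lyz2, Adgre1, Itgam, Tyrobp, Fcer1g, Fcgr3, Siglech and Cd3e were at 0 counts in both libraries, and Ptprc, the pan-leukocyte marker, had at most 1. The 7 endothelial markers summed to 0.686 and 0.485 CPM, and the 9 lung epithelial markers to 0.686 and 0.714 CPM, with Epcam, Sftpc and Kdr at 0. In bulk RNA, more expressing cells and more RNA per cell cannot be told apart for any of the 5 genes.

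Some reads of the members could belong to other genes. The Ube2l6 transcript shares stretches with 12 other genes, of which only Ift46 (260 bases at 96.5% identity) and D10Wsu102e (498 bases at 90.6%) had more than 1 count in either library. The others had at most 1 count or were not analysed here, among them Gm17167 with 508 bases at 95.1%. Ift46 was at 41.6 CPM in the control and 37.9 CPM after silencing, and D10Wsu102e at 65.0 and 65.8 CPM. Isg15 shares 482 bases at 95.2% identity with an annotated processed pseudogene, AC151275.1, which was not analysed here. Uba7 shares 233 exonic bases with Gm20661, which had 1 count in each library, and Usp18 shares 124 with Gm44148 on the opposite strand, which had 0. Herc6 shares 1269 exonic bases with Gm45193, which was not analysed here. How much of a member's count was drawn from or given to these genes was not tested.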

How the data were processed

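The data were 2 poly(A) RNA-seq libraries, 1 of shcircCsnk1g3 and 1 of shCTR cells, prepared with a stranded kit. According to the methods, the authors aligned reads to GRCm38 with STAR and estimated a count per gene with RSEM, which divides reads that fit several genes. The deposited count table holds these estimates as whole numbers, without normalization, for 25509 genes and 92 spike-in rows that were all 0. A further deposited table holds CPM after TMM scaling for 11624 genes, each column being the count column times 1 constant. TMM factors came from edgeR 4.0.16 (R 4.3.3), log2 fold changes from CPM with a prior count of 2, and intervals, with python 3.11.15 and scipy 1.17.1, from exact 95% limits. A floor of 3 counts served only to describe low values, and no gene was removed by it. No test between conditions was possible. Alternatives were DESeq2 1.42.0 size factors, total counts, prior counts of 0.5 and 10, the deposited CPM table, no filter, at least 200 summed counts, a 1.5-fold threshold, and a correction by deciles of GC content and length. Annotation was GENCODE M21 (25251 of 25509 identifiers matched), transcript similarity used blastn 2.17.0 (at least 100 bases and 90% identity), protein identity Biopython 1.88 with free end gaps, and promoters the RefSeq table. The steps were tested on simulated data. Some genes of the lists are not reported here and were left out of the list counts. The members and gene lists were chosen with earlier results of these data known. Genes named were the members, every gene of the lists of further ISG15 enzymes, HERC ligases and pathway genes, and the nearest relatives of the enzymes. Of each list, the highest and lowest genes and those past 2-fold, all with at least 50 summed counts, were named. So were the 10 genes nearest to the members' median. Outside this rule, Csnk1g3, Oas1c, Ubd, genes sharing sequence with members and further markers were named for their counts.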

Additional observations from a re-analysis of the deposited data

How the results depend on the processing

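No paired analysis was possible because each condition had a single library, and for the same reason no replicate could be left out. The 39 values of the 5 genes under the alternatives all stayed within their own counting intervals: Usp18 ranged from 1.81 to 1.92, Isg15 from 1.47 to 1.52, Uba7 from 0.84 to 0.96, Herc6 from 0.57 to 0.63 and Ube2l6 from 0.40 to 0.44. With at least 200 summed counts Uba7 left the list by construction, and the median of the members became 1.05. Lowering the threshold to 1.5-fold raised the count of members past it to 4, and gave 698 higher and 817 lower genes. The 275 genes at least 2-fold higher and 330 lower became 150 and 171 with a prior count of 10, 107 and 168 in the deposited table, 732 and 623 without a filter, and 60 and 79 with at least 200 summed counts. The stricter priors and filters leave fewer genes by construction, and for the deposited values the cause was not tested. The Oas median of 0.83 became 0.71 with a prior count of 10 and 0.54 with at least 200 summed counts. The leukocyte marker median of -0.71 over 3 genes became -0.27 without a filter. The medians of the other lists recomputed moved by no more than 0.1. Those of the endothelial and lung epithelial markers, with 1 and 2 genes tested, were not recomputed.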
